A study of Mus musculus with 3 samples.

Results

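Cells that carried at least 3 of the 6 genes Abcc9, Moxd1, Cemip, Phex, Slco1a4 and Smpd3 were picked out of single-cell RNA libraries of the mouse cochlea. A barcode, the tag that marks the transcripts of 1 droplet, was a member when it held 200 to 6000 genes, at most 15% of its UMIs (unique molecular identifiers, each standing for 1 captured transcript) came from mitochondrial genes, and at least 3 of the 6 genes had a UMI. There were 472 members among the 14378 barcodes within these limits and the 32657 barcodes in all. The 3 libraries came from wild-type mice of strain C57/B6 with no treatment named, 1 library at postnatal day 14 (P14) and 2 at P28. Each pooled 14 cochleae from 7 mice, so that the animals within a library cannot be told apart and the spread between libraries is a spread between pools. UMI totals were 10125255 at P14 and 35485894 and 37530956 in the P28 replicates. The tissue was dissociated with collagenase and no cell type was sorted.

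The 6 genes have separate roles. Abcc9 encodes the regulatory subunit of ATP-sensitive potassium (K-ATP) channels, whose pore in mural and some mesenchymal cells is encoded by Kcnj8. Moxd1 encodes a copper-dependent monooxygenase related to dopamine beta-hydroxylase, Cemip a protein needed for hyaluronan breakdown, Phex an endopeptidase that acts in phosphate and mineral balance, Slco1a4 an organic anion transporter, and Smpd3 a neutral sphingomyelinase needed for skeletal mineralization. In the cochlea, pericytes wrap the capillaries of the stria vascularis and spiral ligament, fibrocytes of the spiral ligament and limbus form a potassium-recycling network rich in cochlin and collagen II, and bone cells build the otic capsule around both. Abcc9 and Kcnj8 are classic pericyte genes, Coch and Col2a1 mark fibrocytes, and Phex and Dmp1 are known from osteocytes, so that the 6 genes together point to no single textbook cell type.

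Abcc9 and Kcnj8 lie side by side, and their upstream sequences are shown because Kcnj8 was detected more often in barcodes with Abcc9 than without it outside the members (values below). In the GENCODE M21 annotation of build GRCm38 (mm10), Abcc9 is at chr6:142587862-142702315 and Kcnj8 at chr6:142564837-142571614, both on the minus strand, with 16247 bases and 0 other annotated genes between them. Slco1a4 (chr6:141805440-141856199, minus strand) is on the same chromosome. Moxd1 is at chr10:24223517-24302790 on the plus strand, Cemip at chr7:83932857-84086502, Phex at chrX:157162075-157415312 and Smpd3 at chr8:106252548-106337988, all 3 on the minus strand. The windows below end at the gene's start, run 5′ to 3′ on the minus strand and come from RefSeq on GRCm38.p6 (chr6:142702316-142702524 for Abcc9 and chr6:142571615-142571864 for Kcnj8). Capitals mark a match to GGGCGG or its reverse complement.
Abcc9: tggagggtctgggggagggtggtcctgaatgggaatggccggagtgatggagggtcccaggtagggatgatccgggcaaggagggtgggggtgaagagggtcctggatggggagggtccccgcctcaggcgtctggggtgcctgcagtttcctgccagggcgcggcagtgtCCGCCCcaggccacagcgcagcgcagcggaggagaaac
Kcnj8: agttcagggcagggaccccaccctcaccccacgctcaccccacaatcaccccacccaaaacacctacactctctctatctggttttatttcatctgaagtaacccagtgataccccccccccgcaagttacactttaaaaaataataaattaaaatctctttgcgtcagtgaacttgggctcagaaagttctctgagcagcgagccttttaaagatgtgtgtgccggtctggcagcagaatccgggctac
The Abcc9 window of 209 bases is 68.4% G and C, and the Kcnj8 window of 250 bases is 49.2%. Both strands were searched for the TATA box core TATAAA, for the CCAAT box, for the GC box GGGCGG and for the forkhead motif TGTTTAC, with no motif overlapping another. The Abcc9 window held 1 match to GGGCGG, which 26.5% of 32851 windows of the same length hold, and none of the other motifs. The Kcnj8 window held none, against shares of 12.4% for TATAAA, 33.8% for CCAAT, 32.7% for GGGCGG and 3.17% for TGTTTAC among windows of its length. For the Abcc9 length these shares were 9.51% for TATAAA, 29.8% for CCAAT and 2.67% for TGTTTAC.

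Members made up 4.75% of the barcodes at P14 (79 barcodes, exact 95% binomial interval 3.78 to 5.89%), 3.01% in P28 replicate 1 (170, 2.58 to 3.49%) and 3.16% in P28 replicate 2 (223, 2.76 to 3.59%). The P14 interval lay above both P28 intervals, which overlapped; with 1 library at P14 there is no test of age, and intervals here and below cover counting error only. Members had a median of 1966, 2485.5 and 2663 UMIs at P14, in P28 replicate 1 and in P28 replicate 2, against 2545, 2418 and 2030 in all other barcodes. The median mitochondrial share in members was 4.47%, 8.06% and 9.49% in the same order. Most members held exactly 3 of the 6 genes: 47 of 79 at P14, 120 of 170 in P28 replicate 1 and 182 of 223 in P28 replicate 2. All 6 genes were found in 4 members at P14, 0 in P28 replicate 1 and 1 in P28 replicate 2. No barcode sequence was shared between the members of different libraries, while the library pairs shared 10, 20 and 54 barcodes in all.

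The limits on genes and mitochondrial UMIs removed few candidates at P14 and more at P28. Before the limits, 87, 237 and 340 barcodes at P14, in P28 replicate 1 and in P28 replicate 2 held 3 or more of the genes. Of these, 1, 24 and 2 had over 6000 genes, and 7, 43 and 115 had over 15% mitochondrial UMIs. Barcodes just outside the rule, with exactly 2 of the genes, numbered 77, 391 and 469. In CPM, the UMI count of a gene scaled to the same total for every class and library, Abcc9 was at 198, 200 and 228 CPM with 2 genes and at 285, 365 and 370 CPM with 3 genes. Kcnj8, which the rule did not use, was at 44.3, 33.7 and 29.8 CPM just outside and at 97.8, 101.0 and 49.3 CPM just inside. The rise of Abcc9 between these groups follows from the sorting by rule genes.

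Levels of the 6 rule genes describe the choice of members and carry no test. Abcc9 was at 538, 408 and 429 CPM in members at P14, in P28 replicate 1 and in P28 replicate 2, and at 13.3, 27.5 and 33.6 CPM in all other barcodes. Moxd1 was at 1805, 591 and 669 CPM in members, and Cemip at 561, 201 and 251 CPM. Phex was at 565, 73.3 and 175 CPM. The P14 library was the highest for each of these 4 genes, with Abcc9 varying least between libraries. Slco1a4 was at 330, 78.8 and 92.7 CPM in members and Smpd3 at 950, 67.7 and 274 CPM, so that P14 was again the highest.

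Each rule gene was also looked up in barcodes that the other 5 genes had chosen. Abcc9 was found in 35.9% of P14 barcodes with 3 or more of the other 5 genes, 76.2% in P28 replicate 1 and 47.5% in P28 replicate 2, against 1.89%, 3.37% and 3.60% of barcodes with none of the other 5. Moxd1 was found in 75.0%, 74.6% and 52.9%, against 5.12%, 10.9% and 12.5%. Smpd3 was found in 73.7% at P14 and in 16.3% and 15.8% at P28, against 3.36%, 1.26% and 2.04%. The share was higher among barcodes with 3 or more of the others for all 6 genes in all 3 libraries, which carries no support for the class, since the 6 genes were chosen together as markers with results of these libraries known. The range over the other 3 genes was 9.04% (Slco1a4 in P28 replicate 2) to 47.5% (Phex at P14), against 0.441% (Phex in P28 replicate 1) to 5.99% (Cemip in P28 replicate 1) with none. Median depth was close where the shares were furthest apart: for Abcc9 in P28 replicate 1 it was 2076 UMIs with 3 or more of the others and 2321 UMIs with none, although for Cemip in the same library it was 4210.5 against 2405.5. For comparison, non-members with 2 or more of 4 hair cell genes (median 6510, 5469 and 4274 UMIs) held Abcc9 in 0.306%, 2.32% and 2.93% and Cemip in 3.98%, 11.2% and 10.4%. With members left out, these barcodes held at most 2 rule genes each. Whether these UMIs came from free RNA was not tested.

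**Figure D1:**
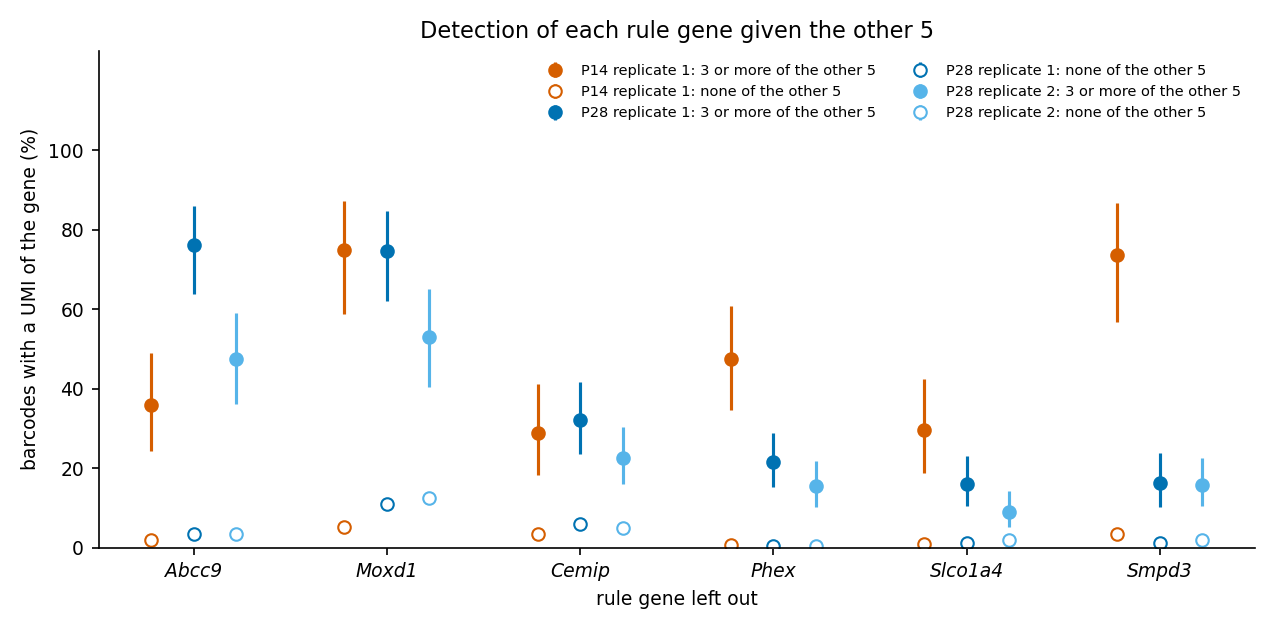
Percent of barcodes with a UMI of each rule gene (y axis) among barcodes with 3 or more of the other 5 genes (filled) and with none of them (open), by library; bars are exact 95% binomial intervals. The 6 genes were chosen together as markers on these data, so that the plot describes the rule. Filled points lie above the open points of their library, from 9.04% for Slco1a4 in P28 replicate 2 to 76.2% for Abcc9 in P28 replicate 1.

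The members were not 1 population. When each library was clustered on 2000 variable genes without the 6 rule genes, 266 of the 472 members (56.4%, 51.7 to 60.9%) lay in 1 cluster per library. This cluster held 61 of 79 members at P14 (77.2%), 93 of 170 in P28 replicate 1 (54.7%) and 112 of 223 in P28 replicate 2 (50.2%). It held 87, 254 and 333 barcodes in all, and members were 70.1%, 36.6% and 33.6% of them. Besides rule genes, its leading genes included Kcnj8, A2m (a protease inhibitor) and, in the P28 libraries, Fst, which encodes the activin inhibitor follistatin, Hhip, an inhibitor of hedgehog ligands, Inmt and Themis. A second group of 122 members (25.8%) lay in clusters led by Emilin2, Otor and Notum, with 6 at P14, 54 in P28 replicate 1 and 62 in P28 replicate 2. These clusters held 2226 barcodes over all libraries. The non-members in the clusters of both groups count among all other barcodes in the comparisons below. Another 15 members of P28 replicate 2 lay in a cluster led by the bone matrix gene Bglap. At P14, 7 members lay in a cluster with Ibsp, Bglap, Acan, Cytl1 and Otos among its leading genes, although no P14 member held both Bglap and Ibsp. Clusters led by Acan and Dmp1, found at P28 only, held 11 and 10 members, and other clusters 5, 12 and 24. No doublet caller was run, and doublets were not removed.

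UMIs were spread unevenly over these groups. Members in the leading cluster had a median of 1785, 1721 and 1443.5 UMIs, and members in the Emilin2, Otor and Notum clusters 6681, 13020.5 and 7804 UMIs. The leading cluster therefore gave 58.3% of all member UMIs at P14 but 18.8% and 19.5% in the P28 libraries, where the Emilin2, Otor and Notum clusters gave 70.1% and 57.9%. A level summed over all members at P28 thus gives the second group the most weight, and it says nothing of either group alone. Levels in each group are given below where stated. Members in the second group were deeper than their clusters at large: in P28 replicate 1, 53 members lay in a cluster whose own median was 7279 UMIs and had a median of 13083. The part of depth or of doublets in this second group was not tested. With barcodes of over 3000 genes or 15000 UMIs left out, 68.7% of 386 members lay in the leading cluster.

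**Figure D2:**
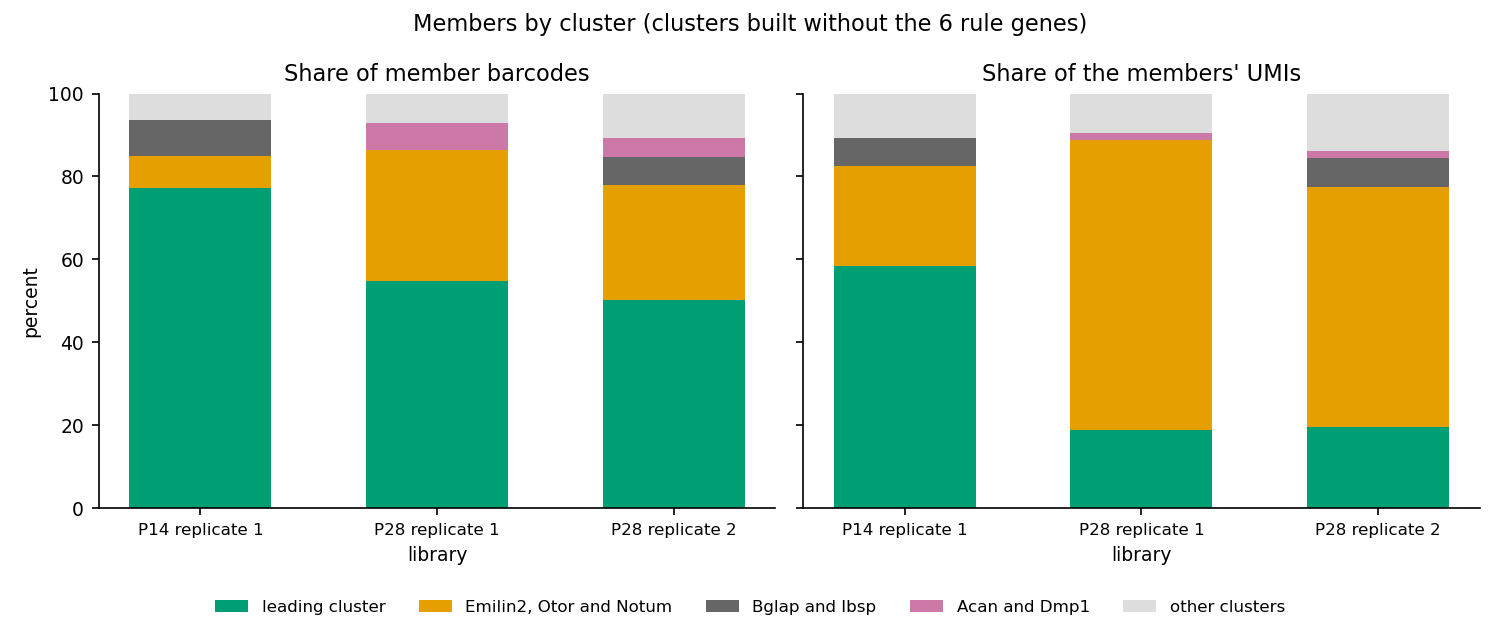
Percent of member barcodes (left) and of the members' UMIs (right) in each group of clusters, by library; clusters were built without the 6 rule genes. The group named Bglap and Ibsp is 1 cluster at P14, where no member held both genes, and 1 in P28 replicate 2. The leading cluster holds 50.2 to 77.2% of member barcodes, but 18.8% and 19.5% of member UMIs in the P28 libraries.

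Pericyte genes split into those found in the members and those nearly absent from them. Kcnj8, the K-ATP channel pore, was at 109, 108 and 55.8 CPM in members at P14, in P28 replicate 1 and in P28 replicate 2, and at 3.47, 7.23 and 7.49 CPM in all other barcodes. All 3 member values lay above all 3 others. In leading-cluster members it was at 171, 351 and 143 CPM, and in Emilin2, Otor and Notum cluster members at 0, 54.3 and 39.6 CPM. Kcnj8 was higher in members than in all other barcodes by a log2 fold change of 3.88 ± 0.38 (SE, 3 libraries; edgeR quasi-likelihood test with library as a block, adjusted p = 0.005177). Pdgfrb, the PDGF receptor of pericytes and many fibroblasts, was at 321, 127 and 109 CPM in members and at 21.4, 45.2 and 54.6 CPM in others, also without overlap (log2 fold change 2.10 ± 0.53, edgeR adjusted p = 0.04305). Its level was 434, 232 and 219 CPM in leading-cluster members and 93.9, 94.0 and 80.8 CPM in the second group. Rgs5, a regulator of G protein signalling and an abundant pericyte transcript, was at 9.05, 14.8 and 5.98 CPM in members and at 34.1, 4.51 and 5.34 CPM in others, with overlapping values and a log2 fold change of 0.40 ± 0.66 (edgeR adjusted p = 0.7161). The 10 barcodes that held 3 or more of 7 pericyte genes and at most 1 rule gene (4, 4 and 2 per library) had Rgs5 at 19710, 1074 and 682 CPM, on 155, 22 and 2 UMIs. Rgs5 was among the genes that chose them, so that these levels describe the choice. These classes were under 10 barcodes per library and were not compared by a test.

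Kcnj8 had a UMI in 17.7%, 41.2% and 19.3% of members, in 0.695%, 2.72% and 2.06% of other barcodes and in 0%, 0.842% and 1.06% of the hair cell-marker barcodes, where 0 of 327 barcodes allows a share of up to 1.12% (exact upper limit). Thinned to 1000 UMIs per barcode, which left 68, 164 and 206 members, the Kcnj8 share was 10.3%, 17.1% and 9.71% in members and 0.487%, 1.11% and 0.912% in others. Rgs5 had a UMI in 2.53%, 2.35% and 2.69% of members and in 1.53%, 0.842% and 0.798% of hair cell-marker barcodes, with overlapping intervals, so that on 2 to 6 member barcodes per library no difference from that level was detectable. In leading-cluster members Rgs5 was at 15.5, 9.89 and 15.3 CPM, with a UMI in 2, 2 and 3 barcodes. Of the 8 pericyte genes, Higd1b, Vtn and Mcam were at 0 in leading-cluster members of every library, while Cspg4 was also at 0 at P14 and in P28 replicate 2, and Notch3 in P28 replicate 2. The list summed to 636, 603 and 377 CPM there, with Pdgfrb or Kcnj8 the most abundant gene. Of the smooth muscle genes, Acta2, Myh11 and Cnn1 were at 0 in leading-cluster members of every library and Mylk (202, 64.3 and 102 CPM) was the most abundant. Members with 3 or more of the 7 pericyte genes numbered 0 at P14, 6 in P28 replicate 1 and 3 in P28 replicate 2.

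Outside the members, Kcnj8 was detected more often in barcodes with Abcc9 than in those without. It was found in 17.0%, 19.1% and 12.4% of other barcodes with an Abcc9 UMI (median 2030, 2267 and 2663 UMIs) and in 0.195%, 1.47% and 1.30% of those without (2586, 2423.5 and 2006 UMIs), with intervals apart in each library. These other barcodes included non-members of the leading cluster, of which 19, 95 and 101 held 2 rule genes. Their part in the difference was not tested. Within members the split uses a rule gene, so that members without Abcc9 had to hold 3 of the other 5 genes and the 2 sets were chosen differently. Kcnj8 was detected in 31.6%, 42.6% and 21.5% of members with an Abcc9 UMI (median 2248.5, 2704 and 2787 UMIs) and in 4.88%, 26.7% and 9.52% of members without one (1606, 1397 and 2303.5 UMIs). The intervals were apart at P14 (17.5 to 48.7% and 0.596 to 16.5%) and overlapped in each P28 library (34.7 to 50.8% and 7.79 to 55.1% in replicate 1, 15.8 to 28.3% and 2.66 to 22.6% in replicate 2), and most members with Abcc9 had no Kcnj8 UMI. Kcnj11, the other K-ATP pore gene, had no UMI in members of any library, while it was at 11.6, 13.4 and 10.99 CPM in other barcodes. Abcc8, the alternative regulatory subunit, was at 0, 0.927 and 0 CPM in members and at 19.6, 9.23 and 7.62 CPM in others.

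Fibrocyte genes were present at different levels in the 2 groups of members. Coch, which encodes the abundant extracellular protein cochlin, was at 5853, 5955 and 6898 CPM in members and at 486, 1194 and 1639 CPM in all other barcodes, with no overlap (log2 fold change 2.69 ± 0.42, edgeR adjusted p = 0.01215). In leading-cluster members Coch was at 1589, 5533 and 6773 CPM, and in Emilin2, Otor and Notum cluster members at 18929, 6138 and 7622 CPM. Coch had a UMI in 73.4%, 90.6% and 86.5% of members, against 4.28%, 20.4% and 31.4% of hair cell-marker barcodes. Coch-rich members, with at least 5 Coch UMIs making up at least 0.5% of the total, were 15.2%, 46.5% and 47.1% of all. Col2a1, the collagen of cartilage and of the tectorial region, was at 4822, 111 and 497 CPM in members and at 300.0, 33.3 and 55.8 CPM in others, with overlapping values and both classes highest at P14 (log2 fold change 3.03 ± 0.45, edgeR adjusted p = 0.01064). Leading-cluster members held Col2a1 at 6954, 208 and 291 CPM and the second group at 469, 60.9 and 58.5 CPM. The 497 CPM over all members of P28 replicate 2 exceeded both, so that members of the remaining clusters held more. Pou3f4, a transcription factor of the otic mesenchyme whose loss causes deafness, was at 375, 459 and 470 CPM in members and at 54.8, 146 and 187 CPM in others (1.94 ± 0.28, edgeR adjusted p = 0.0104).

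Otor and Otos, a pair of secreted inner ear proteins, went opposite ways. Otor was at 1732, 2386 and 1979 CPM in members and at 177, 450.2 and 515 CPM in others (log2 fold change 2.58 ± 0.31, edgeR adjusted p = 0.007252). Most of it came from the second group of members, at 6160, 3285 and 3044 CPM, against 318, 203 and 230 CPM in leading-cluster members. Otos, which encodes otospiralin of the spiral ligament, was at 222, 246 and 700 CPM in members and at 381, 862 and 1285 CPM in others (-1.12 ± 0.27, edgeR adjusted p = 0.03594). Each library had the lower Otos value in members, although the highest member value exceeded the lowest value of the others. In leading-cluster members Otos was at 194, 766 and 1484 CPM, which in P28 replicate 2 lay above the other barcodes, and in the second group at 0, 99.3 and 432 CPM. In Coch-rich barcodes with at most 1 rule gene, Otos was at 15115, 11719 and 6468 CPM.

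Dmp1 made up most of the bone gene UMIs in the leading cluster. Dmp1, a matrix phosphoprotein of osteocytes and dentine, was at 683, 55.6 and 143.5 CPM in members and at 13.6, 6.72 and 13.3 CPM in others, without overlap (log2 fold change 4.06 ± 0.51, edgeR adjusted p = 0.007638). In leading-cluster members it was at 892, 173 and 168 CPM and in the second group at 37.6, 3.97 and 8.60 CPM. In P28 replicate 2 these groups gave 19.5% and 57.9% of member UMIs. Most of the 143.5 CPM there thus came from members of the remaining clusters. A Dmp1 UMI was found in 46.8%, 19.4% and 21.5% of members, against 0.306%, 0.842% and 1.33% of hair cell-marker barcodes. The bone list of 8 genes summed to 923, 232 and 204 CPM in leading-cluster members, with Dmp1 the most abundant, and Sost and Mepe were at 0 in all 3 libraries. Alpl, alkaline phosphatase, was at 7.75, 49.4 and 15.3 CPM there, and Bglap, osteocalcin, at 7.75, 9.89 and 0 CPM. Over all members Bglap was at 4.52, 1.85 and 6119 CPM, and 0, 0 and 15 members held UMIs of both Bglap and Ibsp. The P28 replicate 2 library, with 15 members in its Bglap and Ibsp cluster, thus stood apart from the others in Bglap.

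Of the mineral and phosphate list, 10 genes outside the rule were tested. Dmp1, Enpp1, Alpl and Mgp were higher in members, Slc20a1 and Ucma lower, and 4 did not pass, while over all 13960 genes tested 6.87% were higher and 11.7% lower. Mgp, an inhibitor of mineralization, was at 1669, 54.7 and 59.8 CPM in members and at 85.6, 8.84 and 18.1 CPM in others (2.94 ± 0.47, edgeR adjusted p = 0.01318). Enpp1, which makes the mineral inhibitor pyrophosphate, was at 63.3, 13.9 and 14.0 CPM against 9.85, 7.23 and 7.22 CPM (1.53 ± 0.40, edgeR adjusted p = 0.04684). Spp1, osteopontin, was at 330.2, 631 and 829 CPM in members and at 39.5, 762 and 1020 CPM in others, so that members were higher at P14 and lower in both P28 libraries (0.73 ± 0.66, edgeR adjusted p = 0.4852).

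**Figure D3:**
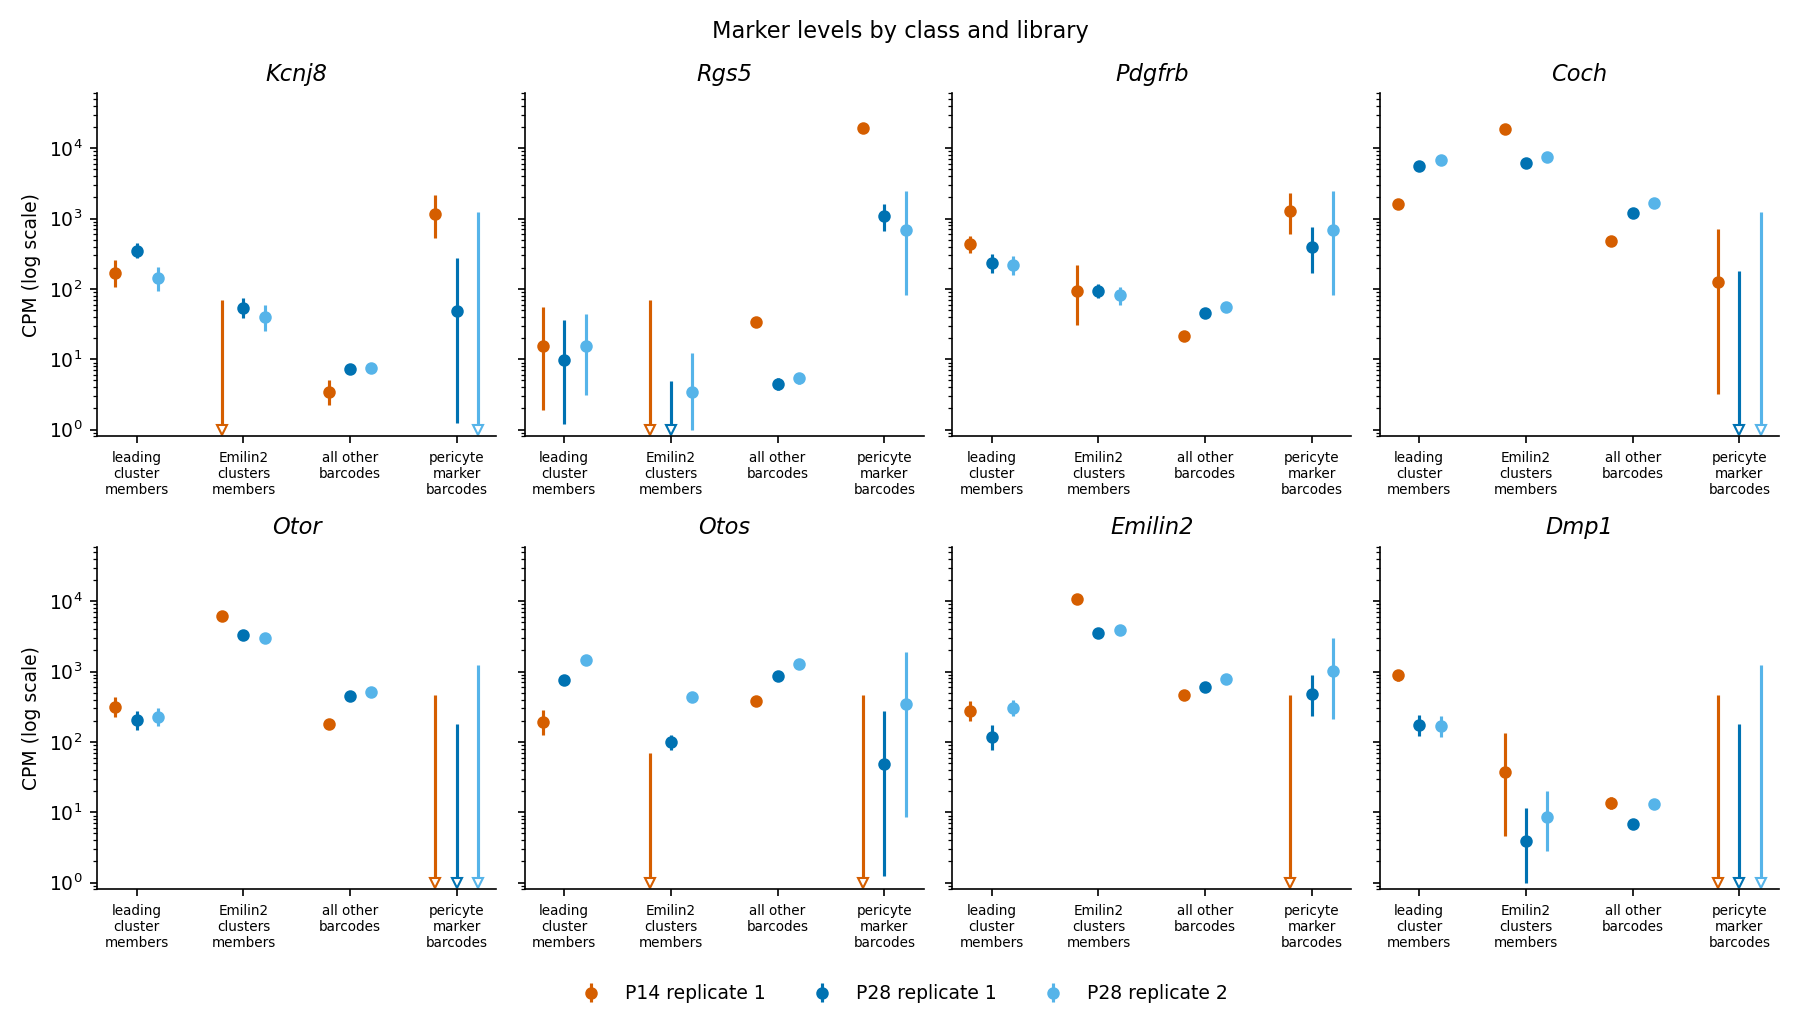
CPM (log axis) of 8 marker genes in leading-cluster members, Emilin2-cluster members, all other barcodes and pericyte-marker barcodes, by library; bars are exact 95% Poisson intervals and open triangles at the axis mark a count of 0. Kcnj8 and Dmp1 are highest outside the pericyte-marker barcodes in leading-cluster members, Otor and Emilin2 in Emilin2-cluster members, and Rgs5 in pericyte-marker barcodes (682 to 19710 CPM), which were chosen on pericyte genes including Rgs5.

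Across all 13960 genes tested, 959 (6.87%) were higher in members than in all other barcodes and 1633 (11.7%) were lower (edgeR, adjusted p under 0.05; unadjusted p under 0.05, 1910 and 2976), and the median log2 fold change was -0.10. Leaving out any 1 library leaves 1 residual degree of freedom. Without P14 replicate 1 the counts were 1913 and 2612, whereas without P28 replicate 1 or without P28 replicate 2 both were 0, so that every call against all other barcodes in this text was lost, and the cause was not tested. The test sets the member sum against the sum of the other barcodes of the same library, which include non-members of the members' own clusters. It treats libraries of different ages as replicates of the difference. The genes furthest below the other barcodes included Ocm, the oncomodulin of outer hair cells. Pvalb, a calcium buffer, was at 0, 23.2 and 10.96 CPM in members and at 734, 453 and 388 CPM in others (log2 fold change -5.08 ± 0.60, edgeR adjusted p = 0.006822). The other 9 leading genes were Calb2, Snap91, Atp2b2, Mia, Dnm3, Ocm, Kcnk1, Rnase1 and Pcp4, at log2 fold changes between -4.94 (Calb2) and -3.84 (Pcp4).

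Genes higher in members were led by Fst, Rarres1, Lox, Cald1, Col2a1, Col1a2, Nnat, Eng, Vstm4 and Slco1c1. Fst was at 194, 254 and 244 CPM in members and at 9.01, 30.4 and 27.0 CPM in others (log2 fold change 3.55 ± 0.29, edgeR adjusted p = 0.004138). It belonged to the leading cluster, at 326, 1197 and 1076 CPM, against 0, 18.5 and 5.16 CPM in the second group. Cald1, the actin-binding protein caldesmon, was at 868, 661 and 697 CPM in members and at 38.8, 113 and 166 CPM in others (3.04 ± 0.46, edgeR adjusted p = 0.0113), and was likewise higher in the leading cluster (1101, 2022 and 1816 CPM) than in the second group (357, 314 and 342 CPM). Rarres1 showed the reverse: at 1556, 275 and 262 CPM over all members, it was at 15.5, 4.94 and 5.10 CPM in the leading cluster and at 6422, 390.4 and 433 CPM in the second group. Its log2 fold change of 3.28 ± 0.22 (edgeR adjusted p = 0.003829) fell to 0.95, not past the threshold, without barcodes of over 3000 genes or 15000 UMIs. Lox, the copper enzyme that cross-links collagen and elastin, was at 1710, 774 and 979 CPM in members and at 106, 108 and 140 CPM in others (3.25 ± 0.29, edgeR adjusted p = 0.004665) and was present in both groups of members.

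Slco1c1, a transporter of thyroid hormone and organic anions, was at 1701, 551 and 577 CPM in members and at 110, 123 and 154 CPM in others (log2 fold change 2.69 ± 0.41, edgeR adjusted p = 0.0113). It lies at chr6:141524368-141570177 on the plus strand, on the chromosome of Slco1a4 and Abcc9, and all members' values lay above all others. In leading-cluster members Slco1c1 was at 2140, 944 and 867 CPM, against 939, 458 and 550.3 CPM in the second group. The list counts that follow stand beside shares of 6.87% higher and 11.7% lower over all 13960 genes tested. Of the 9 transport genes tested outside the rule, Slco1c1 and Abcg2 were higher, Slco2a1 was lower and 6 did not pass. Of 10 potassium channel genes, Kcnj8 was higher and Abcc8, Kcnj11, Kcnj10, Kcnj13, Kcnj15, Kcnj16, Kcnk2 and Kcnma1 were lower, with a median log2 fold change of -2.39. Of 8 hyaluronan genes none was higher and Cd44, Lyve1 and Hapln1 were lower (median -1.01). Of 12 sphingomyelin and ceramide genes none passed (median -0.31), and of 5 copper enzymes Pam, Lox and Loxl1 were higher (median 1.41).

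More matrix genes were called higher than lower. Of 28 collagen genes tested, 15 were higher in members, Col18a1 was lower and 12 did not pass, with a median log2 fold change of 1.52. The shares over all 13960 genes tested were 6.87% higher and 11.7% lower. Col4a3, a chain of the basement membrane collagen of kidney and inner ear, was at 379.9, 61.2 and 46.8 CPM in members and at 29.4, 5.66 and 7.53 CPM in others (3.30 ± 0.25, edgeR adjusted p = 0.004138). Col4a4, its partner chain, was at 507, 95.5 and 139.5 CPM against 47.0, 14.2 and 21.03 CPM (3.00 ± 0.20, edgeR adjusted p = 0.003829). Both were higher in members in every library, and both were highest at P14. Col4a3 was at 457, 163 and 102 CPM in leading-cluster members and at 451, 42.3 and 41.3 CPM in the second group. Of 32 proteoglycans and glycoproteins 13 were higher and 3 (Epyc, Fbln2 and Otos) lower, with a median of 1.34. Mfap4, a microfibril protein, was at 145, 28.8 and 21.9 CPM in members and at 4.99, 4.89 and 5.07 CPM in others (3.17 ± 0.53, edgeR adjusted p = 0.01445), and Ogn, osteoglycin, at 516, 400 and 489 CPM against 28.6, 109 and 132 CPM (2.63 ± 0.46, edgeR adjusted p = 0.0158). Both were mainly found in the leading cluster, where Mfap4 was at 248, 124 and 96.9 CPM against 0, 3.97 and 1.72 CPM in the second group, and Ogn at 682, 1800 and 1765 CPM against 0, 39.7 and 74.0 CPM.

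Regulators were called in both directions, where 6.87% of all 13960 genes tested were higher and 11.7% lower. Of 32 mesenchymal transcription factors 11 were higher and 5 lower (median log2 fold change 1.29), and among the higher ones were Pou3f4, Foxc1, Foxc2, Twist1 and Prrx1. Foxc1, a forkhead factor of mesenchyme, was at 375, 332 and 343 CPM in members and at 27.7, 113 and 157 CPM in others (2.12 ± 0.48, edgeR adjusted p = 0.03228). It was at 403, 346 and 383 CPM in leading-cluster members and at 225, 332 and 370 CPM in the second group. Of 34 secreted signalling genes 11 were higher and 8 lower (median 1.04), of 21 gap junction and ion transport genes 5 were higher and 7 lower (median -0.31), of 8 retinoid genes 3 were higher and 2 lower (median 0.09), and of 9 immediate early and heat shock genes Fos and Egr1 were higher and none lower (median 0.39). Gjb2 and Gjb6, the connexins of the cochlear gap junction network, were lower. Gjb2 was at 240, 121 and 111 CPM in members and at 915, 609 and 564 CPM in others (-2.17 ± 0.20, edgeR adjusted p = 0.004665), with 109, 54.4 and 138 CPM in leading-cluster members and 0, 22.5 and 32.7 CPM in the second group. Gja1, called higher, was at 4.52, 2.78 and 73.7 CPM in members, and its level in P28 replicate 2 stood apart.

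Markers of other cell types moved with the members as follows, and their part in the results above was not tested. For comparison, 6.87% of all 13960 genes tested were higher and 11.7% lower. Of the 6 tested genes of each list, 2 pericyte genes (Kcnj8, Pdgfrb), 2 bone genes (Dmp1, Alpl), 2 collagen I fibroblast genes (Col1a2, Pdgfra) and 4 endothelial genes (Cdh5, Flt1, Kdr, Emcn) were higher, and none of these lists had a lower gene. Of 6 cartilage genes Acan and Col9a1 were higher and Hapln1 and Cnmd lower. Of 7 fibrocyte genes Coch, Col2a1, Otor and Pou3f4 were higher and Otos lower, and of 7 meningeal fibroblast genes Foxc1 and Foxc2 were higher and Ptgds lower. Emcn, endomucin, made up most of the endothelial list: it was at 991, 3280 and 2775 CPM in members, at 1054, 692 and 638 CPM in the leading cluster and at 1484, 4371 and 4339 CPM in the second group. The defining endothelial genes Pecam1 and Cldn5 were at 0 in leading-cluster members, except for Pecam1 at 5.10 CPM in P28 replicate 2. Flt1 was at 18.1 CPM in P14 members against 18.9 CPM in others, and higher in members only at P28. The only tested smooth muscle gene, Mylk, and the tympanic border gene Emilin2 were higher. All 4 hair cell genes and all 4 macrophage genes were lower, as were 2 of 3 epithelial, 2 of 3 Schwann and 1 of 3 intermediate cell genes (Dct) and the Reissner's membrane gene Vmo1. No basal cell, marginal cell, B cell or red blood cell gene passed in either direction.

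Against Coch-rich barcodes with at most 1 rule gene (36 at P14, 323 in P28 replicate 1 and 563 in P28 replicate 2), no gene passed. Its barcodes came from several clusters. At P14, 52.8% lay in the cluster with Ibsp, Bglap, Acan and Otos among its leading genes and 0% in the leading cluster, whereas in the P28 libraries 31.6% and 26.3% lay in the Acan and Dmp1 clusters and 12.7% and 11.7% in the members' leading cluster. Clusters were built per library, and P14 had none led by Acan and Dmp1, so that these shares cannot be matched one to one between ages. The Emilin2, Otor and Notum clusters held 44.4%, 36.8% and 38.4% of it. By edgeR, 0 of 9875 genes (0.0%) stood higher in members and 0 (0.0%) lower, although 360 and 397 had an unadjusted p under 0.05, and the smallest adjusted p was 0.09001. The count depends on the setting of the fit: edgeR's legacy fit, the first one run, called 98 higher and 203 lower, and DESeq2 called 4 and 27. On simulated counts for this comparison the legacy fit recovered more of the changed genes than the fit reported here, with false calls within the intended rate. Without P14 replicate 1 edgeR called 614 and 673, so that the count also depends on the P14 library, whose Coch-rich class held 36 barcodes. Otos was the widest difference named above, at 222, 246 and 700 CPM in members and at 15115, 11719 and 6468 CPM in Coch-rich barcodes, in the same direction in 3 of 3 libraries (log2 fold change -4.97 ± 0.63, edgeR adjusted p = 0.2371). Kcnj8 had a log2 fold change of 1.60 ± 0.47 (edgeR adjusted p = 0.5231) and Mfap4 of 2.31 ± 0.33 (edgeR adjusted p = 0.262). A p that misses the threshold does not show that members and Coch-rich barcodes were alike.

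Against collagen I fibroblast-marker barcodes (166, 391 and 467 barcodes with 4 or more of 7 genes and at most 1 rule gene), 381 of 10243 genes (3.72%) were higher in members and 376 (3.67%) lower. Without 1 library these counts ran from 62 to 793 and from 46 to 851. Kcnj8 was higher by a log2 fold change of 4.26 ± 0.34 (edgeR adjusted p = 0.0002591). Otor, at 103, 162 and 239 CPM in the fibroblast-marker barcodes, was higher in members by 3.66 ± 0.22 (edgeR adjusted p = 6.294e-05). Pdgfrb, shared by both classes, had a log2 fold change of 0.34 ± 0.25 (edgeR adjusted p = 0.5356). All 5 tested bone genes were called higher, but only Dmp1 and Bglap were higher in members in all 3 libraries, with Bglap at 4.52 against 4.48 CPM at P14. Ibsp and Alpl were so in 2 libraries and Bglap2 in 1, which was P28 replicate 2 with its Bglap and Ibsp cluster (3144 CPM in members against 228 CPM), and Alpl was lower in P14 members (9.05 against 15.7 CPM). Of the meningeal fibroblast genes Slc6a13, Ptgds, Aldh1a2 and Zic1 were lower in members and Foxc1 and Foxc2 higher. Aldh1a2, which makes retinoic acid, was at 13.6, 39.9 and 26.9 CPM in members and at 242, 190 and 205 CPM in the fibroblast-marker barcodes (-2.80 ± 0.27, edgeR adjusted p = 0.0005414). Of 24 collagens tested outside the rule of this class 8 were higher, 5 (Col6a1, Col6a2, Col6a3, Col15a1 and Col18a1) were lower and 11 did not pass, with a median log2 fold change of 0.27.

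Emilin2-rich barcodes numbered 81, 673 and 911. They held at least 3 Emilin2 UMIs making up at least 0.1% of the total, and at most 1 rule gene. This class was added after part of the members had been found in Emilin2-led clusters. Of 10019 genes 94 (0.938%) were higher in members and 19 (0.19%) lower, and without 1 library the counts ran from 9 to 349 and from 0 to 181. The member sums hold the 122 members of Emilin2-led clusters. Fst was at 0, 4.31 and 5.99 CPM in Emilin2-rich barcodes and higher in members by a log2 fold change of 5.57 ± 0.26 (edgeR adjusted p = 1.089e-05). Dmp1 was higher by 6.10 ± 0.38 (edgeR adjusted p = 0.0001514), Ogn by 2.73 ± 0.13 (edgeR adjusted p = 5.302e-05) and Kcnj8 by 2.26 ± 0.34 (edgeR adjusted p = 0.02295). Cald1, Dner, Spp1, Ccn2, Cxcl12, Col8a1, Car3 and Lox were also higher. Tnfaip6, Ccn3, Sox11, Epha3, Ptn, Pam and Aard were lower. Ptn, the heparin-binding growth factor pleiotrophin, was at 9295, 11340 and 8974 CPM in members and at 22018, 17670 and 16104 CPM in Emilin2-rich barcodes (-0.97 ± 0.15, edgeR adjusted p = 0.02905). The 4 comparisons share the member sums, and their values are set side by side without a test between them.

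**Figure D4:**
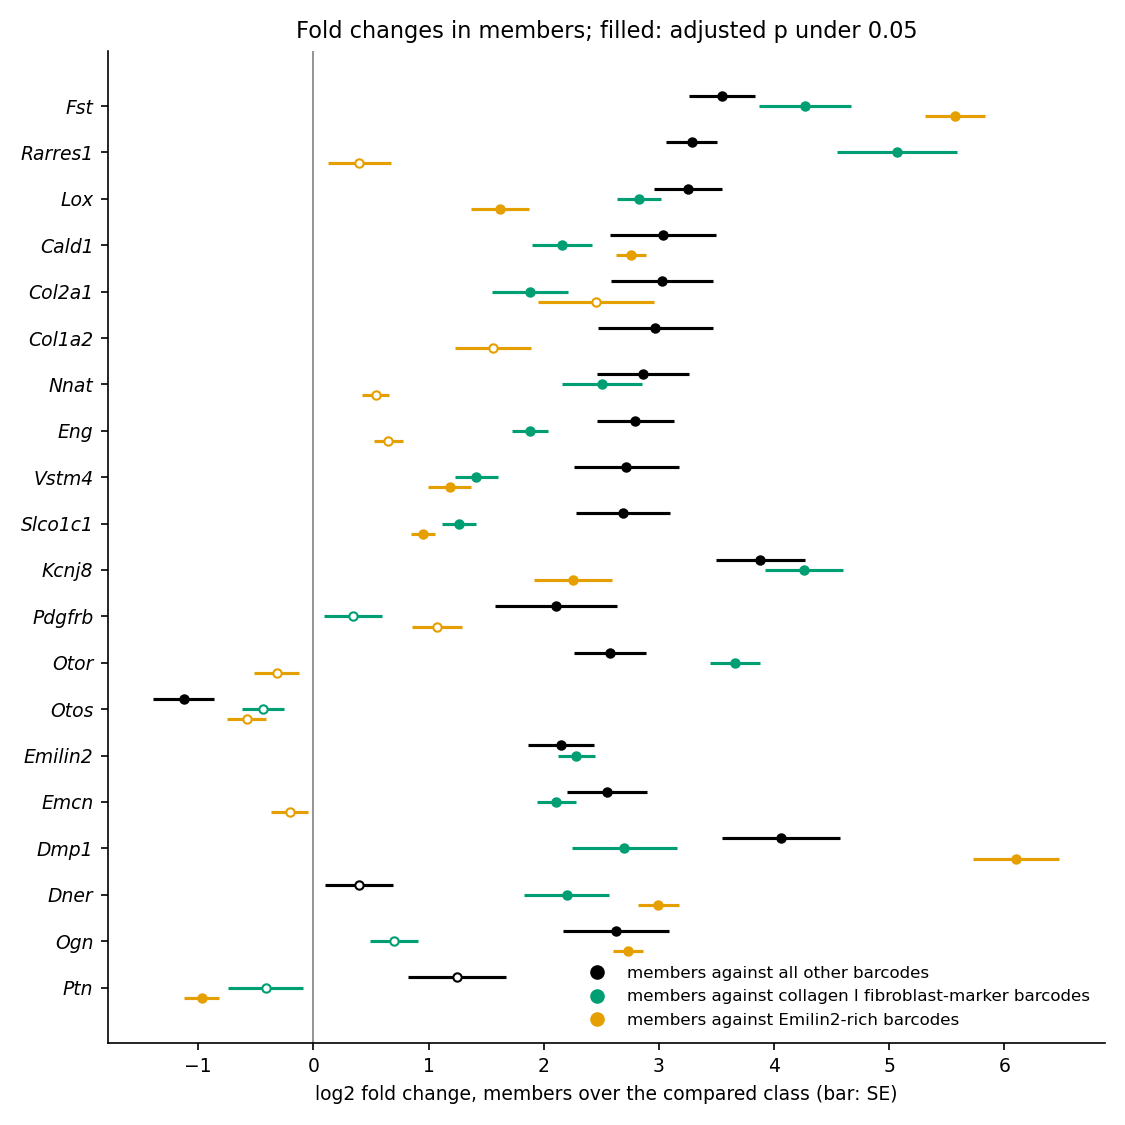
Log2 fold change of 20 genes in members over all other barcodes, collagen I fibroblast-marker barcodes and Emilin2-rich barcodes; bars are standard errors and filled points have an edgeR adjusted p under 0.05. Kcnj8 is filled in all 3 comparisons (2.26 to 4.26), and Pdgfrb only against all other barcodes (2.10).

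Between ages the data allow description, since P14 had 1 library. Of 16037 genes with a UMI in members, 453 had a P14 level whose 95% Poisson interval lay above both P28 intervals and 375 one that lay below both. These sums hold different mixes of members: the leading cluster gave 58.3% of member UMIs at P14 and 18.8% and 19.5% at P28. The part of this mix in the counts was not tested. Among genes higher at P14, the widest ratios belonged to Xist, Hist1h1b, Hist1h2ae, Slc4a1 and Hist1h2ap. Xist, the RNA of the inactive X chromosome, was at 882 CPM in P14 members and at 0 and 0.997 CPM at P28, and in all other barcodes at 382, 0.255 and 0.314 CPM. The Y-linked gene Ddx3y was found in members of every library, at 45.2, 100.2 and 98.7 CPM. The sex make-up of the pools and their age cannot be told apart in any difference between P14 and P28. Hist1h1b and Hist1h2ap, histone genes, were at 448 and 805 CPM at P14, but at 15.5 and 7.75 CPM in P14 leading-cluster members. Slc4a1, the anion exchanger of red blood cells, was at 113 CPM at P14 and at 0 CPM in P14 leading-cluster members. UMIs of these 3 genes thus came mostly from P14 members outside the leading cluster, 2 of which lay in a cluster led by red blood cell genes.

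Genes lower at P14 were led by Ifi27l2a, Anks1b, Rps27rt, Ptgds and Crip1. Ptgds, prostaglandin D synthase, was at 54.3 CPM at P14 and at 550.0 and 1205 CPM at P28, and at 0, 1073 and 2132 CPM in leading-cluster members. Ifi27l2a, an interferon-induced gene, was at 0, 145 and 136 CPM over all members and at 0, 331 and 117 CPM in the leading cluster. Anks1b was at 9.05, 244 and 232 CPM over all members, at 7.75, 19.8 and 10.2 CPM in the leading cluster and at 18.8, 339 and 365 CPM in the second group, so that within the second group too the P14 level, of 1 UMI, was the lowest. Haemoglobin Hbb-bs was at 17957 CPM in members at P14, 113 CPM in P28 replicate 1 and 2324 CPM in P28 replicate 2. Its part in the differences between ages was not tested. A fit with mitochondrial, ribosomal and haemoglobin genes left out called 1034 genes higher in members than in all other barcodes and 1615 lower. Of these, 958 and 1610 were among the 959 and 1633 main calls.

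**Figure D5:**
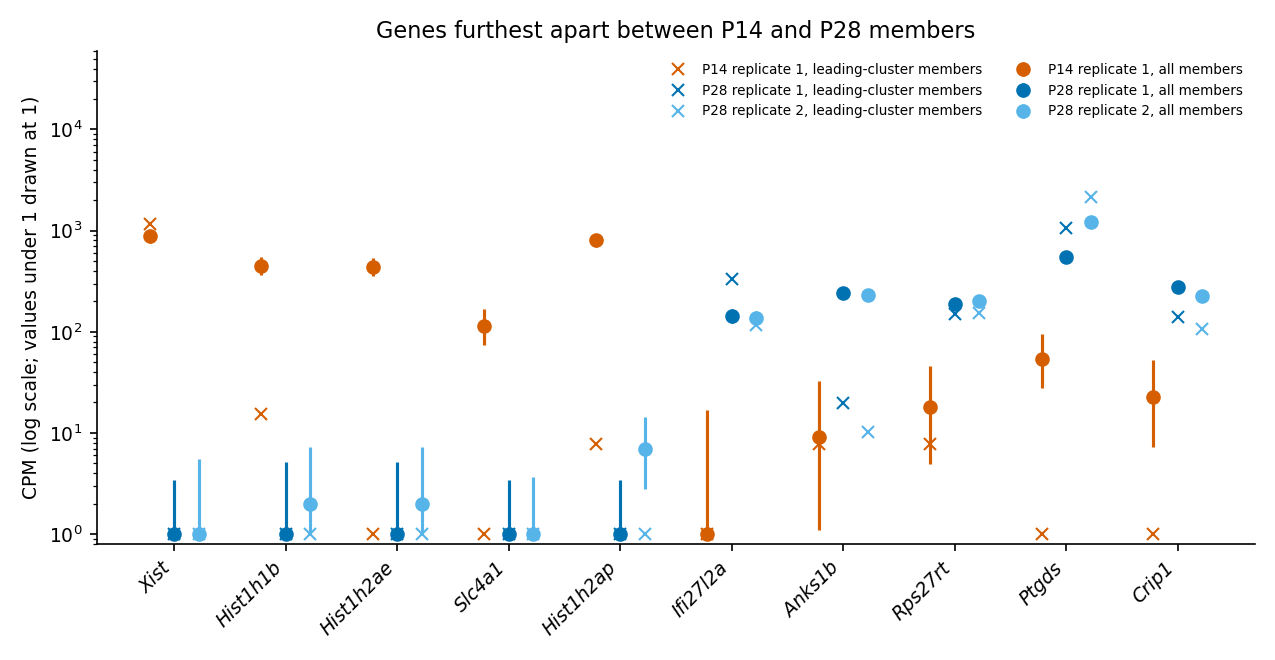
CPM (log axis, values under 1 drawn at 1) of the 5 genes in each direction furthest apart between P14 and P28 members; circles with exact 95% Poisson intervals are all members and crosses are leading-cluster members. Xist is at 882 CPM in P14 members and under 1 CPM at P28, and the P14 histone genes are at 0 to 15.5 CPM in leading-cluster members.

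Set against the label of mesenchymal cells, 15 of 28 collagens and 13 of 32 proteoglycans and glycoproteins were higher in members. Col18a1, Epyc, Fbln2 and Otos were lower and the rest of these lists did not pass. Among all 13960 genes tested against all other barcodes, 6.87% were higher and 11.7% lower. All 4 hair cell, all 4 macrophage and 2 of 3 epithelial genes were lower. Of 6 endothelial genes 4 were higher, but Pecam1 and Cldn5 did not pass. One of the 4, Flt1, was not higher at P14 (18.1 against 18.9 CPM). No marker list gave the members as a whole a more exact name. Of them, 122 lay in clusters led by Otor, Notum and the tympanic border gene Emilin2. In P28 replicate 2, 15 members held UMIs of both bone genes Bglap and Ibsp. The leading cluster combined Abcc9, Kcnj8 and Pdgfrb with Coch, Phex and Dmp1, while Rgs5 was at 9.89 to 15.5 CPM, Higd1b, Vtn and Mcam were at 0, Otos lay below the level of other barcodes in 2 of 3 libraries, and Sost and Mepe were at 0. It is therefore referred to by its leading genes Phex, Abcc9 and Kcnj8.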

How the data were processed

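Per the labels, libraries were made with the 10x Genomics 3′ v3.1 chemistry, and the submitters' processing notes name Cell Ranger 6.0.1 and build mm10, whereas the matrix headers name version 5.0.1. The deposited matrices hold raw UMI counts per gene and barcode, made by the authors without normalization. Members, the compared classes and the gene lists were chosen with earlier results of these data known. Counts were summed per class and library (at least 10 barcodes per class and library) and tested with edgeR 4.0.16 in R 4.3.3: TMM factors, filterByExpr, quasi-likelihood fit with library as a block, and Benjamini-Hochberg adjustment over all genes tested (threshold 0.05). Genes used by a rule stayed in the fit and were not counted. The quasi-likelihood fit was first run with edgeR's legacy setting. On simulated counts with known changes, the legacy setting made more false calls than the current setting in all 4 comparisons, well above the intended rate against all other barcodes. Against Coch-rich barcodes its false calls stayed within that rate and it recovered more of the changed genes, so that the reason for the change does not hold there. The current setting was then adopted, after results of the legacy setting had been seen, and the legacy counts are given as an alternative. Leading genes were those with the largest log2 fold change past the threshold, the same direction in every library and at least 100 CPM on the higher side, 10 per direction; for the collagen I and Emilin2-rich comparisons this was applied after their values were seen. Clusters were built per library in scanpy 1.11.5 (2000 variable genes, 30 principal components, 15 neighbours, Leiden resolution 1). Intervals are exact at 95% (Poisson for CPM, Clopper-Pearson for shares). Positions are from GENCODE M21 and upstream windows from RefSeq on GRCm38.p6. Alternatives were DESeq2 1.42.0, other filters, factors, rules and limits, thinning to 1000 UMIs and leaving out each library.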

Additional observations from a re-analysis of the deposited data

Results flagged for a closer look

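In 25 cases over the 4 comparisons, a listed gene was higher in members at P14 and lower in both P28 libraries, or the other way round, with 95% Poisson intervals apart in every library. The opposite direction alone, without the interval condition, which was set after the values were seen, was met by 39 listed genes against all other barcodes, 82 against Coch-rich, 37 against collagen I fibroblast-marker and 34 against Emilin2-rich barcodes. The difference between ages was not tested, since P14 had 1 library. Against all other barcodes, Dcn (decorin) was at 1588 CPM in P14 members, above the others, and at 259.7 and 342 CPM in the P28 members, below them. Col15a1 (176 CPM in P14 members) and the haemoglobin genes Hba-a1 (5414 CPM), Hba-a2 (3239 CPM), Hbb-bs (17957 CPM) and Hbb-bt (3261 CPM) went the same way. Spp1 (330 CPM) was also higher at P14 and lower at P28.

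Against Coch-rich barcodes, Dcn (1588 CPM in P14 members), Hba-a1 (5414 CPM), Hba-a2 (3239 CPM) and Hbb-bs (17957 CPM) were higher in members at P14 and lower at P28. Emcn (991 CPM), Emilin2 (2773 CPM), Fn1 (109 CPM), Igfbp5 (3487 CPM), Kcnk3 (149 CPM), Otor (1732 CPM) and Rarres1 (1556 CPM) were lower at P14 and higher at P28. Against collagen I fibroblast-marker barcodes, the 4 haemoglobin genes were higher at P14 and lower at P28, while Flt1 (18.1 CPM) and Pam (457 CPM) were lower at P14 and higher at P28. Against Emilin2-rich barcodes, Rarres1 (1556 CPM) was lower at P14 and higher at P28.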

How the results depend on the processing

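Counts of genes called moved with the setting. Against all other barcodes, genes higher and lower in members (959 and 1633) became 529 and 393 with at least 10 UMIs in every sum, 414 and 923 with 4 of the 6 rule genes required, and 368 and 596 after thinning to 1000 UMIs. Without the replicate block 580 were higher, and with at most 3000 genes and 15000 UMIs 948 were lower. Leaving out each library gave 0 to 1913 higher and 0 to 2612 lower. Against Coch-rich barcodes (0 and 0), DESeq2 gave 4 and 27, the legacy fit 98 and 203, 4 of 6 rule genes 2 and 13, at most 3000 genes and 15000 UMIs 7 and 2, and leaving out each library 0 to 614 and 0 to 673. Against collagen I fibroblast-marker barcodes (381 and 376), DESeq2 gave 220 and 182, at least 10 UMIs 164 and 141, no replicate block 111 and 101, 4 of 6 rule genes 169 and 175, thinning 146 and 127, and leaving out each library 62 to 793 and 46 to 851. Against Emilin2-rich barcodes (94 and 19), the legacy fit gave 182 and 66, at least 10 UMIs 36 and 7, no replicate block 15 and 0, at most 3000 genes and 15000 UMIs 221 and 194, at most 30% mitochondrial UMIs 154 and 44, thinning 143 and 89, and leaving out each library 9 to 349 and 0 to 181; with 4 of 6 rule genes 50 were lower. The causes were not tested, apart from fewer genes tested under the 10 UMI filter (4024 of 13960 against all other barcodes). Members numbered 1409 with 2 of 6 rule genes, 123 with 4 of 6, and 158 when barcodes were thinned before the rule. The share of members in the leading cluster became 68.7% with at most 3000 genes and 15000 UMIs. Of 1250 values for named genes under these settings, 1077 kept their direction and side of the threshold (including values past it under neither setting), 144 kept the direction but no longer passed, 29 newly passed and 0 reversed; of the 144, 52 and 49 came from leaving out P28 replicate 1 and P28 replicate 2 and 23 from dropping the replicate block. No comparison with pericyte-marker barcodes was run, since each library held fewer than 10 of them. The Emilin2-rich class was added, and edgeR's current fit was put in place of the legacy fit run first, after seeing the data. No paired analysis was possible between ages because the P14 and P28 libraries are pools of different mice, which the replicate numbers do not pair.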
